A study of Mus musculus with 86 samples.

Results

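The genes described here are 40 cell cycle and mitosis genes, followed through injured and uninjured kidney, liver and lung of mice. They were taken by name from a list: 15 genes of DNA replication and the entry into S phase (Ccne1, Ccne2, Mcm2, Mcm3, Mcm4, Mcm5, Mcm6, Mcm7, Gins2, Pcna, Uhrf1, Rrm1, Rrm2, Tyms and Tk1), 24 genes of mitosis and its preparation (Mki67, Top2a, Foxm1, Cdk1, Ccna2, Ccnb1, Ccnb2, Aurka, Aurkb, Plk1, Bub1, Bub1b, Birc5, Cenpa, Cenpe, Cenpf, Kif11, Kif20a, Kif23, Nusap1, Tpx2, Prc1, Cdc20 and Ube2c), and the G1 cyclin Ccnd1. All 40 are protein-coding genes and were found among the 31054 genes of the count files and the 38277 genes of the FPKM tables.

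The study asked what loss or inhibition of MERTK, a kinase receptor on phagocytes that helps them clear dead cells, does to tissue fibrosis, and holds 86 samples. In the knockout experiment (32 samples), mice of the genotypes Wild type (WT) and Mertk knockout (KO) had sham surgery, unilateral ureteral obstruction (UUO), which injures the kidney whose ureter is tied, or bile duct ligation (BDL), which injures the liver, with 4 samples in each group. In the inhibitor experiment (54 samples), mice of the genotype Wild type were injected with DMSO or with UNC569, a MERTK inhibitor. Kidneys came from sham surgery (3 samples with each injection) or UUO (4 with DMSO, 8 with UNC569), livers from sham surgery (3 each) or BDL (6 each), and lungs from sham treatment (3 each) or bleomycin, an agent that injures the lung (6 each). The tables hold 7 columns for the UUO kidneys with UNC569 and 4 columns for the BDL livers with UNC569, so these are the numbers tested. The kidney libraries sham WT 1 and UUO WT 1 were left out, a choice made with earlier results of these data known. This left 14 kidney and 16 liver libraries in the knockout experiment. The labels give no allele, age, sex, dose or time after injury, and none ties a sample to an animal.

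A dividing cell copies its DNA in S phase and separates the copies in mitosis, and each step has its own genes. D-type cyclins such as Ccnd1 respond to growth signals in G1; E2F transcription factors then switch on the replication genes, and later the complexes that bind so-called CHR elements and CCAAT boxes release the mitotic genes. In a healthy adult kidney, liver or lung few cells divide, and after injury tubule cells, hepatocytes, bile duct cells, fibroblasts and macrophages can all re-enter the cycle. In RNA from whole tissue, a larger share of dividing cells and more RNA per dividing cell cannot be told apart.

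The split into S phase and mitotic genes was made on function, and the promoters of the 2 sets also differed in the letters they hold. Of the 40 genes, 31 had a promoter in the RefSeq table (build GRCm38.p6), with 34 promoters of 300 bases, from 250 before to 50 after the start. Both strands were searched for the CHR (TTTGAA or its variant TTCGAA) and the CCAAT box, spelled as its name. The core of an E2F site was searched as TTCCCGC and its variants TTGGCGC and also TTCGCGC and lastly TTGCCGC. The CHR was in 16 of the 20 mitotic promoters (80.0%), in 2 of the 14 S phase promoters (14.3%) and in 19.2% of all 32851 mouse promoters of that length. The E2F core showed the opposite order, with 9 of 14 S phase promoters (64.3%), 3 of 20 mitotic promoters (15%) and 9.57% of all promoters. A CCAAT box was common in both, in 11 of 14 S phase promoters (78.6%) and 18 of 20 mitotic promoters (90.0%), against 37.4% of all. CHR and CCAAT box stood together in 80.0% of the mitotic promoters and in 7.52% of all. These are matches of letters, and binding was not analysed here.

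**Figure D1:**
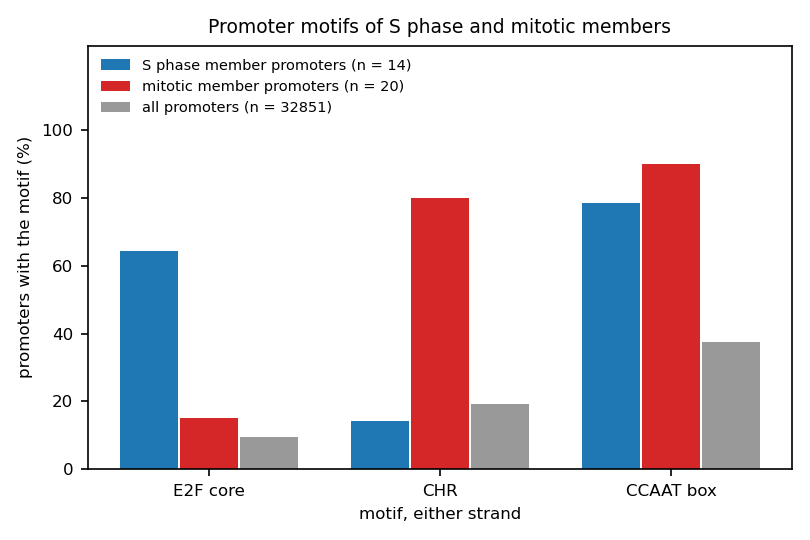
Share of promoters, in percent on the vertical axis, that hold each motif, for the 14 S phase promoters, the 20 mitotic promoters and all 32851 promoters of the RefSeq table. For the CHR the mitotic bar is the highest of the 3 (80.0%) and for the E2F core the S phase bar is (64.3%).

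The promoters printed here were picked as examples of this split, and other members depart from it. The stretch of Mcm2 holds a CHR and no E2F core, and those of Pcna and Rrm2 hold no E2F core. Among mitotic genes, the stretch of Ccnb1 holds an E2F core and no CHR, and those of Aurka, Bub1b, Cenpe and Plk1 hold no CHR. The longer promoters of Aurka, Bub1b and Plk1 do hold a CHR. Those of Ccne1, Tk1, Tyms, Birc5 and Nusap1 hold no CHR, E2F core or CCAAT box. Uhrf1 has another promoter, whose stretch holds no E2F core. Each stretch has 180 bases from 150 before to 30 after the RefSeq start, 5′ to 3′ in the direction of the gene. Matches to the CHR, E2F core and CCAAT box on either strand are in capitals where the whole match lies in the stretch. The first 4 printed belong to S phase genes. Mcm6, at chr1:128359676-128359855 on the minus strand, and Mcm5, at chr8:75109359-75109538 on the plus strand, encode subunits of the MCM helicase that unwinds DNA at the fork; so does Mcm3, at chr1:20820283-20820462 on the minus strand. Uhrf1, at chr17:56303187-56303366 on the plus strand, encodes the factor that brings the maintenance DNA methyltransferase to newly copied DNA.
Mcm6: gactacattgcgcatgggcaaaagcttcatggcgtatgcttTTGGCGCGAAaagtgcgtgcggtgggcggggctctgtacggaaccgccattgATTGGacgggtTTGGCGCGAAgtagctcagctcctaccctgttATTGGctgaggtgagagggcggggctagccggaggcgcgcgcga
Mcm3: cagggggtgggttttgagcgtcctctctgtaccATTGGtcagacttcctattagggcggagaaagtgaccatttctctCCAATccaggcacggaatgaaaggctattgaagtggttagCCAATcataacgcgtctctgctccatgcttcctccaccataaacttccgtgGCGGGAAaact
Mcm5: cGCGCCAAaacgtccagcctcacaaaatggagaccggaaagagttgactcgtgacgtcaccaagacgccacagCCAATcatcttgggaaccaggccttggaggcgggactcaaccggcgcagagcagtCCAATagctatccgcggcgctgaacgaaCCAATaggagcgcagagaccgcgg
Uhrf1: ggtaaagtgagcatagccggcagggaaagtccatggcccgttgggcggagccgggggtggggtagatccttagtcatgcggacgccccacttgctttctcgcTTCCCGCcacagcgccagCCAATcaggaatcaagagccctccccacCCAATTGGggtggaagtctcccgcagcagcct
In each of the 4, an E2F core is in capitals together with a CCAAT box, and none of the 4 stretches holds a CHR. The other 5 belong to mitotic genes. Top2a, at chr11:99024160-99024339 on the minus strand, encodes the topoisomerase that untangles chromosomes; Mki67, at chr7:135716350-135716529 on the minus strand, the Ki-67 antigen used to stain dividing cells; Cdk1, at chr10:69352883-69353062 on the minus strand, the kinase that drives mitosis; Ccnb2, at chr9:70421525-70421704 on the minus strand, a B-type cyclin that activates it. Ube2c, at chr2:164769779-164769958 on the plus strand, encodes the ubiquitin-conjugating enzyme of the anaphase-promoting complex.
Top2a: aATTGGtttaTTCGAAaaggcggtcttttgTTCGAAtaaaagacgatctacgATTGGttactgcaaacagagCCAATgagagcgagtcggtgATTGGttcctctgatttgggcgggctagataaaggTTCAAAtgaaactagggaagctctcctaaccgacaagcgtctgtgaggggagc
Mki67: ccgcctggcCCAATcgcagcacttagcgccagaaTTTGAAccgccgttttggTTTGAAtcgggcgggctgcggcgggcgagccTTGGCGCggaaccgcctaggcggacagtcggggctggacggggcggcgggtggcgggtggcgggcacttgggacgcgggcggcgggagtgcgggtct
Cdk1: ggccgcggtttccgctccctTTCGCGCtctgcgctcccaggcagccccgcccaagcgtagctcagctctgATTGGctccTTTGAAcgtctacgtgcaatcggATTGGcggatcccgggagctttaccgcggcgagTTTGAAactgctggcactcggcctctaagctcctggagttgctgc
Ccnb2: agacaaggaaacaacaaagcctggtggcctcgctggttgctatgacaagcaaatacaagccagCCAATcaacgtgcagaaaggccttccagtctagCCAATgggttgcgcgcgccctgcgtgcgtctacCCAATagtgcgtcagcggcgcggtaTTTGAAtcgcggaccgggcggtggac
Ube2c: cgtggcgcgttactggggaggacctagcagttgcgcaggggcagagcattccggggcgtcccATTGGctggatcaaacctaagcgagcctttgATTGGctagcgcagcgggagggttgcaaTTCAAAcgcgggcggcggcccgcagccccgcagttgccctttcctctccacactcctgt
Each of these 5 stretches holds a CHR and a CCAAT box, and those of Mki67 and Cdk1 hold an E2F core as well.

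Depth and outlying libraries come first, since several results rest on 1 library. The kidney libraries held between 7.22 M and 28.5 M reads in genes, with 16.3 M at the median, and the liver libraries between 14.5 M and 23.4 M, with 15.8 M at the median, while the depth behind the FPKM tables is unknown. Member and marker levels below are in CPM, here counts per M of the library size scaled by TMM, a method that corrects for differences in RNA composition. Mertk itself, in counts per M reads in genes without that scaling, was at 45.3 to 66.0 in WT and 49.9 to 70.4 in KO sham kidneys, and at 60.8 to 79.6 and 54.4 to 77.7 after UUO. In liver it was at 10.8 to 18.9 and 11.2 to 20.6 after sham surgery, and at 21.9 to 39.3 and 5.20 to 20.99 after BDL. The totals of WT and KO libraries overlapped in kidney and in sham livers and not after BDL, where KO libraries were lower. The left-out kidney libraries sham WT 1 and UUO WT 1, not in these ranges, were at 16.9 and 37.7. Which exons the allele lacks is not given in the sources used here, so KO below means libraries labelled Mertk knockout. In kidney, sham WT 3 stood apart, with 58.5% of its reads unmapped, a summed level of 7 fibroblast markers of 6822 CPM (164 to 364 in the other sham kidneys) and the highest value of its group for 36 of the 40 members. In liver, BDL WT 3 was highest in its group for 37 of 40 members and BDL KO 4 for 37 of 40. Among kidneys with sham surgery and UNC569, library 1 was highest for 36 of 40. Results that rest on these libraries are given with and without them. The labels also note a bad fastq file for 9 samples, kidney sham WT 3 among them. Without those, the kidney libraries used leave 1 sham WT, 3 sham KO, 1 UUO WT and 4 UUO KO. In liver 2 sham WT, 4 sham KO, 4 BDL WT and 2 BDL KO libraries are left, so the note falls on WT libraries more often than on KO libraries.

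**Figure D2:**
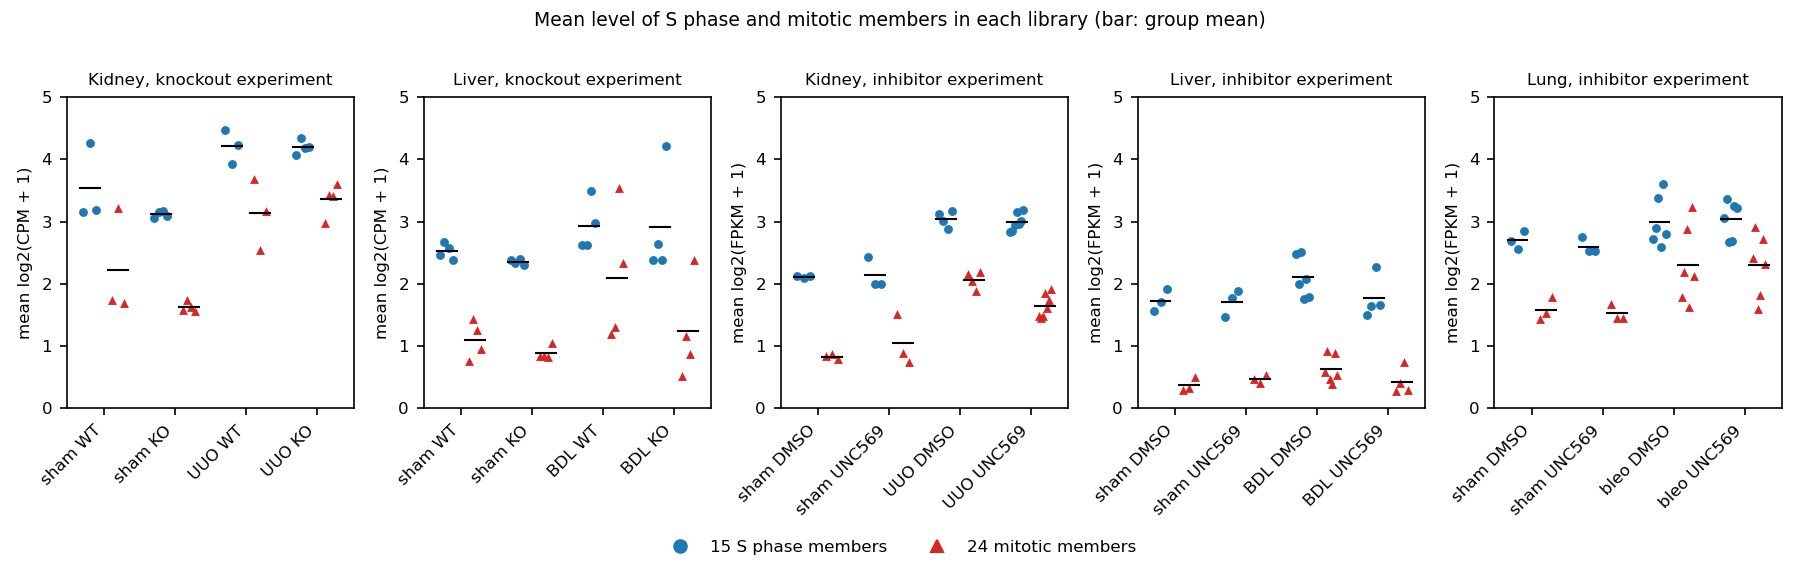
Mean of log2(level + 1) over the 15 S phase and the 24 mitotic members in every library, in 5 panels, with CPM in the knockout experiment and FPKM in the inhibitor experiment. Points are libraries and bars are group means. UUO kidneys stand above the sham kidneys of their own set apart from sham WT 3, whose 2 means reach 4.26 and 3.22, and the mitotic mean of sham UNC569 1 (1.52), while in liver and lung single libraries rise above the rest of their group.

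In kidneys labelled Mertk knockout, obstruction raised nearly the whole set. After UUO 24 of 24 mitotic genes and 11 of 15 S phase genes rose and Ccnd1 fell, where 34.7% of the 16395 genes tested rose and 24.4% fell (59.1% in either direction by edgeR's quasi-likelihood test, a call at a Benjamini-Hochberg adjusted p under 0.05). The median log2 fold change was 2.34 over the mitotic genes, 1.12 over the S phase genes and 0.23 over all genes tested. In 24 of 24 mitotic genes every UUO library lay above every sham library. The share of all genes whose groups did not overlap is not given, here or below, so such remarks only describe the members. Fold changes below are log2, ± SE, and the p-values measure only the spread between these libraries.

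Among the S phase genes, the helicase subunit Mcm3, the methylation factor Uhrf1 and the cyclin Ccne1 had the largest rises. Mcm3 (chr1:20802968-20820312) was at 3.06, 4.901, 3.49 and 3.94 CPM in the 4 sham KO kidneys and at 22.2, 30.9, 29.8 and 22.9 CPM in the 4 UUO KO kidneys. Uhrf1 (chr17:56303321-56323486) was at 1.94, 3.22, 3.72 and 1.51 CPM against 13.2, 20.1, 16.5 and 22.99 CPM. The lowest UUO library was several times above the highest sham library for both genes, with changes of 2.77 ± 0.48 for Mcm3 (adjusted p = 0.000216) and 2.82 ± 0.58 for Uhrf1 (adjusted p = 0.000914). Ccne1, the E-type cyclin that fires CDK2 at the start of S phase, went from 0.373, 0.459, 0.669 and 0.294 CPM to 2.04, 2.35, 3.26 and 1.85 CPM, and rose by 2.40 ± 0.48 (adjusted p = 0.000741). Rrm1, the large subunit of the reductase that makes deoxynucleotides, went from 15.7, 16.8, 15.8 and 12.6 CPM to 34.2, 49.5, 50.2 and 36.6 CPM, a rise of 1.49 ± 0.34 (adjusted p = 0.00178). For these 4 genes the groups did not overlap. Mcm2 (chr6:88883474-88898780), another helicase subunit, was at 13.7, 12.5, 12.9 and 14.7 CPM after sham surgery and at 21.9, 27.1, 20.03 and 22.3 CPM after UUO, and did not pass the test (0.76 ± 0.39, adjusted p = 0.102). Gins2 (0.97, adjusted p = 0.0852), Tyms (−0.26) and Tk1 (0.00) did not pass it either.

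The mitotic genes of these kidneys rose by between 1.09 (Aurka) and 3.35 (Top2a). Mki67 (chr7:135689784-135716361) was at 5.67, 4.44, 4.46 and 3.52 CPM in sham KO kidneys and at 28.8, 43.02, 34.3 and 69.4 CPM in UUO KO kidneys (3.28 ± 0.44, adjusted p = 2.99e-05). Top2a (chr11:98992943-99024189) went from 3.06, 4.59, 4.61 and 3.397 CPM to 25.4, 44.3, 34.95 and 55.6 CPM (3.35 ± 0.76, adjusted p = 0.00176). The highest level of both genes was in the same library, UUO KO 4, in which 32.02% of reads were unmapped. Ccnb2 (chr9:70407692-70421547) went from 1.42, 2.09, 1.19 and 1.17 CPM to 5.28, 7.89, 10.01 and 7.51 CPM, and rose by 2.38 ± 0.36 (adjusted p = 7.34e-05). Bub1b, the checkpoint pseudokinase that holds anaphase back until chromosomes are attached, went from 1.34, 1.07, 1.64 and 2.097 CPM to 7.47, 7.94, 7.99 and 8.105 CPM and rose by 2.35 ± 0.41 (adjusted p = 0.000253). Its 4 UUO values lay within 1 CPM of each other, unlike those of Mki67. Cenpf, a kinetochore protein, went from 1.19, 1.17, 1.04 and 1.34 CPM to 6.06, 7.89, 9.32 and 13.1 CPM (2.92 ± 0.46, adjusted p = 0.000108). Tpx2, which switches on Aurora A at the spindle, went from 1.57, 2.76, 1.26 and 1.55 CPM to 7.47, 10.3, 10.7 and 15.4 CPM (2.61 ± 0.57, adjusted p = 0.00141). Both groups were again apart. Ube2c (chr2:164769898-164778822) went from 0.746, 1.68, 1.56 and 1.803 CPM to 5.44, 7.73, 11.02 and 15.02 CPM (2.74 ± 0.57, adjusted p = 0.000895). Birc5, the survivin subunit of the chromosomal passenger complex, went from 2.61, 1.68, 1.64 and 1.803 CPM to 5.75, 6.66, 6.34 and 13.8 CPM (2.08 ± 0.55, adjusted p = 0.00514). With UUO KO 1 lowest in its group for 21 of 24 mitotic genes and UUO KO 4 highest for 14, the size of the rise differed between UUO libraries while its direction did not.

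Ccnd1 went the other way. It was at 120.1, 124.9, 122 and 102 CPM in sham KO kidneys and at 55.1, 35.8, 42.6 and 25.5 CPM in UUO KO kidneys. Ccnd1 (chr7:144929931-144939925), which binds CDK4 and CDK6 to move cells out of G1, fell by 1.56 on the log2 scale (SE 0.25, adjusted p = 0.000138), and the groups did not overlap.

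In WT kidneys fewer members passed. After UUO 5 of 24 mitotic genes and 2 of 15 S phase genes rose and Ccnd1 fell, beside 23.3% of all genes tested that rose and 16% that fell, so the share of members that rose was not above the background. The medians were 0.82 over mitotic genes, 0.48 over S phase genes and 0.16 over all genes tested. The members that rose were Mcm5 (1.86 ± 0.35, adjusted p = 0.000896), Mcm7 (0.48 ± 0.17, adjusted p = 0.0386), Cenpa, Bub1b, Ccnb2, Foxm1 and Mki67.

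The libraries behind these values differed within the sham group. Mki67 was at 6.72, 22.04 and 5.68 CPM in the sham WT libraries 2, 3 and 4 and at 39.9, 16.9 and 30.5 CPM in the UUO WT libraries 2, 3 and 4 (1.37 ± 0.48, adjusted p = 0.0354). Top2a was at 8.56, 99.6 and 4.94 CPM after sham surgery and at 39.9, 10.6 and 27.3 CPM after UUO (−0.52 ± 0.79, adjusted p = 0.636). Mcm2 was at 5.76, 33.9 and 11.4 CPM against 31.1, 16.9 and 25.3 CPM (0.54 ± 0.45, adjusted p = 0.357). The groups overlapped for all 3 genes, and each time the sham WT 3 value lay above at least 1 UUO library. Mcm5 (chr8:75109569-75128439) was at 4.08, 6.27 and 5.68 CPM in sham and at 27.4, 10.4 and 20.3 CPM in UUO libraries. Cenpa, the histone variant that marks the centromere, was at 3.44, 0.644 and 3.46 CPM against 17.8, 6.33 and 14.4 CPM (2.30 ± 0.49, adjusted p = 0.00216). Sham WT 3 was the lowest of its group for Cenpa, and neither gene's groups overlapped. Bub1b was at 1.04, 4.34 and 2.06 CPM against 13.3, 5.46 and 8.33 CPM (1.91 ± 0.48, adjusted p = 0.0059). Ccnb2 was at 1.92, 3.701 and 1.65 CPM against 9.699, 5.95 and 5.93 CPM (1.60 ± 0.41, adjusted p = 0.00695), and Foxm1, the transcription factor of the mitotic programme, at 2.16, 4.83 and 2.47 CPM against 11.1, 4.98 and 6.98 CPM (1.31 ± 0.42, adjusted p = 0.0225). These 3 also kept their groups apart, with UUO WT 2 highest in its group for 35 of 40 members and UUO WT 3 lowest for 35 of 40.

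Uhrf1, Ccne1 and Tk1 did not pass in WT kidneys. Uhrf1 was at 1.36, 15.9 and 2.55 CPM in sham and 22.9, 16.5 and 19.6 CPM in UUO libraries (1.63 ± 0.65, adjusted p = 0.0598), and Ccne1 at 1.84, 2.74 and 0.576 CPM against 3.15, 2.87 and 3.19 CPM (0.87 ± 0.53, adjusted p = 0.205). Tk1, the thymidine salvage kinase, was at 5.04, 7.08 and 13.7 CPM against 17.9, 12.3 and 14.2 CPM (0.78 ± 0.32, adjusted p = 0.07). Uhrf1 and Ccne1 had separate groups all the same, and Tk1 did not. Kif23, a motor of the cytokinetic midzone, was at 8.56, 8.53 and 5.27 CPM against 13.5, 14.3 and 9.73 CPM (0.75 ± 0.35, adjusted p = 0.104). Birc5 was at 0.7199, 7.88 and 1.98 CPM against 8.42, 5.19 and 7.68 CPM (1.07 ± 0.63, adjusted p = 0.195), and Cdc20, the activator of the anaphase-promoting complex, at 1.6, 9.33 and 2.39 CPM against 11.6, 3.89 and 6.48 CPM (0.77 ± 0.56, adjusted p = 0.295). Ccnd1 fell from 120.2, 129 and 67.3 CPM to 59.5, 34.5 and 47.9 CPM (−1.16 ± 0.29, adjusted p = 0.00634), with no overlap.

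Without sham WT 3, 19 of 24 mitotic genes and 8 of 15 S phase genes rose in WT kidneys after UUO and Ccnd1 fell, where 22% of all genes rose and 18.4% fell. The medians were then 1.88 over mitotic and 1.09 over S phase genes, with 0.11 over all genes. Top2a passed at 1.84 (adjusted p = 0.0087) and Mcm2 at 1.41 (adjusted p = 0.00288), and Mki67 stood at 2.13, Mcm3 at 2.54 and Uhrf1 at 3.22. Without sham WT 2, and likewise without UUO WT 2, 5 members passed.

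WT and KO kidneys were then set against each other. After UUO 0 of 40 members differed by genotype label (0% of all genes higher and 0% lower in KO), 0 had an unadjusted p under 0.05 and DESeq2 called 0. Here and below, percentages of all genes refer to adjusted p. The share of all genes at an unadjusted p under 0.05 is not given, so member counts at that level are no result about the set. The smallest p belonged to Cenpe, the kinetochore motor (0.58 ± 0.30, adjusted p = 0.439), Gins2 (−0.87 ± 0.48, adjusted p = 0.449), Ccne2 (0.71 ± 0.42, adjusted p = 0.471), Mki67 (0.59 ± 0.44, adjusted p = 0.556) and Nusap1, a spindle protein (0.50 ± 0.39, adjusted p = 0.571). After sham surgery edgeR called 0 of 40 members (0.0061% of all genes were higher and 0% lower in KO), DESeq2 called 4, and 14 had an unadjusted p under 0.05, namely 6 S phase and 8 mitotic genes. Top2a was −3.25 ± 0.79 (adjusted p = 0.196), Ccne1 −1.91 ± 0.52 (adjusted p = 0.205), Mcm4 −2.08 ± 0.59 (adjusted p = 0.214), Ccne2 −1.46 ± 0.42 (adjusted p = 0.216) and Cdk1 −2.16 ± 0.66 (adjusted p = 0.216). Those values include sham WT 3, and without it the medians of the sham comparison were −0.11 over S phase and −0.10 over mitotic genes.

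The test of the difference between the KO and the WT response to UUO called 0 of 40 members with edgeR and 3 with DESeq2 (0% of all genes in either direction), and 10 had an unadjusted p under 0.05. The 5 smallest p were those of Ccne2 (2.17 ± 0.60, adjusted p = 0.0946), Top2a (3.87 ± 1.10, adjusted p = 0.0946), Mki67 (1.91 ± 0.63, adjusted p = 0.102), Mcm4 (2.37 ± 0.84, adjusted p = 0.112) and Cenpf (1.83 ± 0.67, adjusted p = 0.117). The difference was positive in 24 of 24 mitotic genes with a median of 1.34, and without sham WT 3 in 17 of 24 with a median of 0.31. Without sham WT 4, which leaves sham WT 2 and 3, 12 members passed this test and 14 passed the sham comparison. The share of all genes called in that setting is not given. Marker sums moved with obstruction in both genotypes: 7 macrophage markers summed to 68.3 to 162 CPM in sham and 646 to 1241 CPM in UUO kidneys, and 6 proximal tubule markers to 9337 to 20593 CPM and 356 to 2499 CPM. None of the macrophage markers was at 0 in any kidney library, and the part of cell composition in the rise was not tested.

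Of the left-out pair, compared with the others per M reads in genes without TMM scaling, sham WT 1 had 3.19 CPM of Mki67 and 4.03 CPM of Top2a, and lay below every other sham WT library for 13 of 24 mitotic genes. UUO WT 1 had 16.9 and 13.0 CPM on that scale, and lay below every other UUO WT library for 15 of 24. With all 16 kidney libraries the calls were 8 members in WT and 31 in KO kidneys.

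In WT livers 9 of 24 mitotic genes and 1 of 15 S phase genes (Pcna) rose after bile duct ligation, and Ccnd1 did not pass, where 16.3% of the 13492 genes tested rose and 12.8% fell (29.1% in either direction). The medians were 2.10 over mitotic genes, 0.69 over S phase genes and 0.03 over all genes tested. The calls rest on 1 library: without BDL WT 3, 0 members passed and the mitotic median was 1.14, where 13.7% of all genes rose and 10.3% fell. Leaving out sham WT 1, 2, 3 or 4 gave 2, 5, 4 and 4 members, leaving out BDL WT 4 gave 6 and leaving out BDL KO 4 gave 16.

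The mitotic levels were low in sham livers and uneven after ligation. Mki67 was at 0.412, 4.56, 1.58 and 2.15 CPM in sham WT livers and at 4.003, 4.48, 34.97 and 17.99 CPM in BDL WT livers (2.82 ± 0.84, adjusted p = 0.0195). Top2a was at 0.529, 4.24, 2.82 and 0.978 CPM against 3.33, 2.73, 33.7 and 13.4 CPM (2.64 ± 0.97, adjusted p = 0.0525). For both genes BDL WT 3 was highest, BDL WT 4 came next, and the other BDL libraries lay within or close to the sham range. Bub1, the kinase that starts the spindle checkpoint, was at 0.118, 0.193, 0.275 and 0.1303 CPM in sham and at 0.493, 0.601, 5.71 and 1.81 CPM in BDL livers (3.56 ± 1.01, adjusted p = 0.0157). Cenpf was at 0.235, 0.321, 0.482 and 0.652 CPM against 0.739, 0.765, 10.4 and 3.48 CPM (3.18 ± 0.94, adjusted p = 0.0191). In these 2 genes each BDL library was above each sham library. Birc5 was at 0.706, 1.67, 0.5504 and 1.43 CPM against 1.48, 2.68, 10.5 and 4.32 CPM (2.12 ± 0.59, adjusted p = 0.0135), and Ube2c at 0.353, 1.03, 1.44 and 0.782 CPM against 1.48, 0.819, 13.1 and 4.19 CPM (2.44 ± 0.84, adjusted p = 0.0395). Ccna2, the cyclin of S phase and early mitosis, was at 0.882, 1.22, 1.65 and 0.912 CPM against 1.23, 2.08, 11.5 and 5.03 CPM (2.09 ± 0.65, adjusted p = 0.0255). In each of these 3 genes 3 of the 4 BDL libraries lay above every sham library. Bub1b (2.15 ± 0.69), Foxm1 (2.14 ± 0.72) and Cenpe (2.95 ± 1.01) rose too, and Nusap1 did not pass (1.79 ± 0.68, adjusted p = 0.0601), at 1.24, 1.73, 0.963 and 0.912 CPM against 1.05, 2.13, 9.66 and 3.87 CPM.

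Of the replication genes, Pcna (chr2:132249162-132253314), the clamp that holds polymerases on DNA, was at 27.5, 25.03, 26.4 and 28.7 CPM in sham and at 31.9, 38.9, 45.8 and 44.4 CPM in BDL livers, and rose by 0.58 ± 0.18 (adjusted p = 0.0243) with no overlap. Mcm2 was at 2.65, 3.47, 3.44 and 1.499 CPM against 4.13, 3.39, 12.1 and 5.997 CPM (1.22 ± 0.69, adjusted p = 0.196), and Mcm6 at 6.53, 7.38, 8.05 and 4.302 CPM against 11.02, 13.3, 27.3 and 16.7 CPM (1.38 ± 0.57, adjusted p = 0.0774). The Mcm6 groups did not overlap and the Mcm2 groups did. Rrm1 was at 8.71, 10.97, 11.4 and 6.52 CPM against 10.2, 8.85, 22.6 and 16.96 CPM (0.64 ± 0.38, adjusted p = 0.216). Ccne2, the second E-type cyclin, was at 1.47, 0.834, 1.72 and 1.499 CPM against 0.924, 1.97, 3.02 and 1.61 CPM (0.45 ± 0.43, adjusted p = 0.442). Ccnd1 was at 10.2, 12, 11.97 and 10.9 CPM in sham WT livers and at 35.04, 24.6, 49.2 and 16.1 CPM in BDL WT livers, higher in 4 of 4, and did not pass (1.47 ± 0.95, adjusted p = 0.254).

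In livers labelled Mertk knockout 7 of 15 S phase genes and 0 of 24 mitotic genes rose after ligation (edgeR), where 14% of all genes rose and 11.2% fell (25.1% in either direction). Of the mitotic genes 4 had an unadjusted p under 0.05. DESeq2 called 10 members in all. The medians were 1.02 over S phase genes, 1.07 over mitotic genes and 0.07 over all genes tested.

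BDL KO 4 was highest in its group for 13 of 15 S phase and 23 of 24 mitotic genes. Mcm5 was at 2.23, 0.9098, 2.18 and 1.51 CPM in sham KO livers and at 1.72, 2.82, 2.32 and 37.1 CPM in BDL KO livers (2.69 ± 0.88). Mcm6 was at 4.32, 5.52, 5.33 and 3.65 CPM against 6.78, 11.7, 5.11 and 53.4 CPM (2.03 ± 0.58), and Mcm2 at 3.08, 1.27, 2.25 and 1.83 CPM against 1.54, 4.22, 1.76 and 21.98 CPM (not called). Each time the fourth library was several times higher than the other 3. Uhrf1 was at 0.328, 0.182, 0.4497 and 0.315 CPM against 0, 2.26, 0.0799 and 14.4 CPM (3.70 ± 1.24, adjusted p = 0.0397). Gins2, a subunit of the GINS part of the helicase, was at 0.393, 0.303, 0.4497 and 0.189 CPM against 1.11, 0.918, 1.36 and 3.31 CPM (2.31 ± 0.63, adjusted p = 0.0166), and Pcna at 23.3, 26.1, 27.9 and 25.3 CPM against 37.02, 33.1, 39.96 and 60.9 CPM (0.74 ± 0.18, adjusted p = 0.00921). Mcm3 (1.80 ± 0.53) and Mcm4 (1.57 ± 0.52) complete the 7, and of the 40 members Gins2 and Pcna alone had groups that did not overlap.

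No mitotic gene of the KO livers passed, and BDL KO 4 carried the highest values. Mki67 was at 0.983, 1.09, 1.61 and 2.02 CPM in sham and at 1.11, 4.22, 1.998 and 13.5 CPM in BDL livers (1.87 ± 0.84, adjusted p = 0.108). Top2a was at 1.24, 0.546, 1.03 and 1.51 CPM against 0.185, 2.51, 1.68 and 12.4 CPM (not called). Aurkb, the kinase of the passenger complex, was at 0.131, 0.243, 0.257 and 0.252 CPM against 0, 0.673, 0.4795 and 4.23 CPM (2.58 ± 0.99, adjusted p = 0.0661). In each, BDL KO 1 was the lowest of its group and lay within or below the sham range, and BDL KO 4 was the highest. Ube2c was at 0.721, 0.303, 0.321 and 0.6301 CPM against 0.3696, 1.22, 1.12 and 5.42 CPM (2.04 ± 0.88, adjusted p = 0.0972), and Birc5 at 1.11, 1.27, 1.28 and 0.6301 CPM against 2.96, 1.96, 0.959 and 4.23 CPM (1.23 ± 0.58, adjusted p = 0.126). Ccna2 was at 0.852, 0.667, 0.771 and 0.756 CPM against 0.3696, 1.65, 2.08 and 4.11 CPM (1.43 ± 0.67, adjusted p = 0.125). Tpx2 was at 0.5896, 0, 0.578 and 0.504 CPM against 0.185, 1.16, 0.559 and 5.48 CPM (2.15 ± 1.11, adjusted p = 0.162). All 4 overlapped between groups. Cenpe was at 0.0655, 0.182, 0.0642 and 0.756 CPM against 0.0616, 0.673, 0.639 and 2.28 CPM (1.76 ± 1.08, adjusted p = 0.237). Ccne1 was at 3.47, 3.46, 1.28 and 2.02 CPM against 2.96, 3.73, 9.03 and 5.196 CPM (1.02 ± 0.45, adjusted p = 0.0995), and Rrm1 at 8.58, 8.79, 8.16 and 10.9 CPM against 9.49, 10.3, 7.75 and 28.9 CPM (0.63 ± 0.38, adjusted p = 0.231).

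Ccnd1 spread widely in this group. It was at 12.9, 9.46, 14.01 and 18.1 CPM in sham KO livers and at 0.862, 32.3, 4.396 and 210.0 CPM in BDL KO livers (2.18 ± 0.96, adjusted p = 0.104). BDL KO 1 and 3, which the labels mark as having a bad fastq file, lay below every sham liver and BDL KO 2 and 4 above. Without BDL KO 4, Gins2 (1.72) and Pcna (0.51) rose and Rrm2 (−1.65) and Cenpa (−1.52) fell, where 17.2% of all genes rose and 14.8% fell. Leaving out sham KO 1, 2, 3 or 4 gave 2, 3, 4 and 1 members, and leaving out BDL KO 1 gave 10. Without BDL KO 1 and 3, 8 S phase genes, 2 mitotic genes and Ccnd1 rose, where 8.53% of all genes rose and 6.67% fell.

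After ligation KO and WT livers did not differ in any member by edgeR (0 of 40, against 2.67% of all genes higher and 1.72% lower in KO, 4.39% in either direction), while DESeq2 called 2 and 8 had an unadjusted p under 0.05. The 24 mitotic genes all had negative values in KO against WT, with a median of −1.39, and the S phase genes were positive in 11 of 15, with a median of 0.20. Bub1 was at 0, 0.122, 0 and 0.685 CPM in BDL KO livers, against the WT values given above (−3.31 ± 0.99, adjusted p = 0.0593). Kif23 was at 0.801, 1.75, 9.66 and 3.42 CPM in BDL WT and at 0, 1.22, 0.3996 and 1.199 CPM in BDL KO livers (−2.45 ± 0.81, adjusted p = 0.0768). Both groups overlapped. Nusap1 was at 0.308, 0.612, 0.799 and 3.08 CPM in BDL KO livers (−1.79 ± 0.68, adjusted p = 0.111) and Cenpf at 0.123, 0.4896, 0.4795 and 2.11 CPM (−2.24 ± 0.88, adjusted p = 0.118), and Bub1b was −1.6 ± 0.67 (adjusted p = 0.141). Leaving out BDL KO 4 made 7 members lower in KO, among them Mki67 (−2.64), Top2a (−3.18) and Bub1 (−5.40), where 3.88% of all genes were lower. The mitotic median was then −2.50, and BDL KO 1 and 3, noted to have a bad fastq file, stayed in that fit. Leaving out BDL WT 3 brought that median to −0.40. Without BDL KO 1 and 3, 0 of 40 members passed and the mitotic median was −0.68, with 2 of 24 genes positive. The S phase median was then 0.82, with 14 of 15 genes positive. Without BDL WT 1 there were 2 calls and without BDL KO 2 there was 1.

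Bile duct and macrophage markers also differed between these livers. The 4 cholangiocyte markers summed to 30.7 to 87.4 CPM in sham livers, to 789 to 2234 CPM in BDL WT livers, highest in BDL WT 3, and to 40.5 to 397 CPM in BDL KO livers, where BDL KO 1 and 4 lay within the sham range. The 7 macrophage markers summed to 391 to 729 CPM in BDL WT and 86.5 to 490 CPM in BDL KO livers, and none of either list was at 0 in a BDL library. Their part in the values of the members was not tested. After sham surgery, and in the difference between the KO and WT responses to ligation, 0 of 40 members passed, with 0 at an unadjusted p under 0.05 and 0 called by DESeq2 (0% of all genes in each direction). The smallest p in the sham livers was that of Tyms (−0.40 ± 0.30, adjusted p = 1), followed by Ccne2, Aurkb, Kif23 and Ccnb2; in the difference it was that of Ccne1 (1.14 ± 0.63, adjusted p = 0.42), followed by Bub1 (−2.65 ± 1.64, adjusted p = 0.473), Nusap1 (−1.53), Mcm7 (0.67) and Gins2 (1.34).

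**Figure D3:**
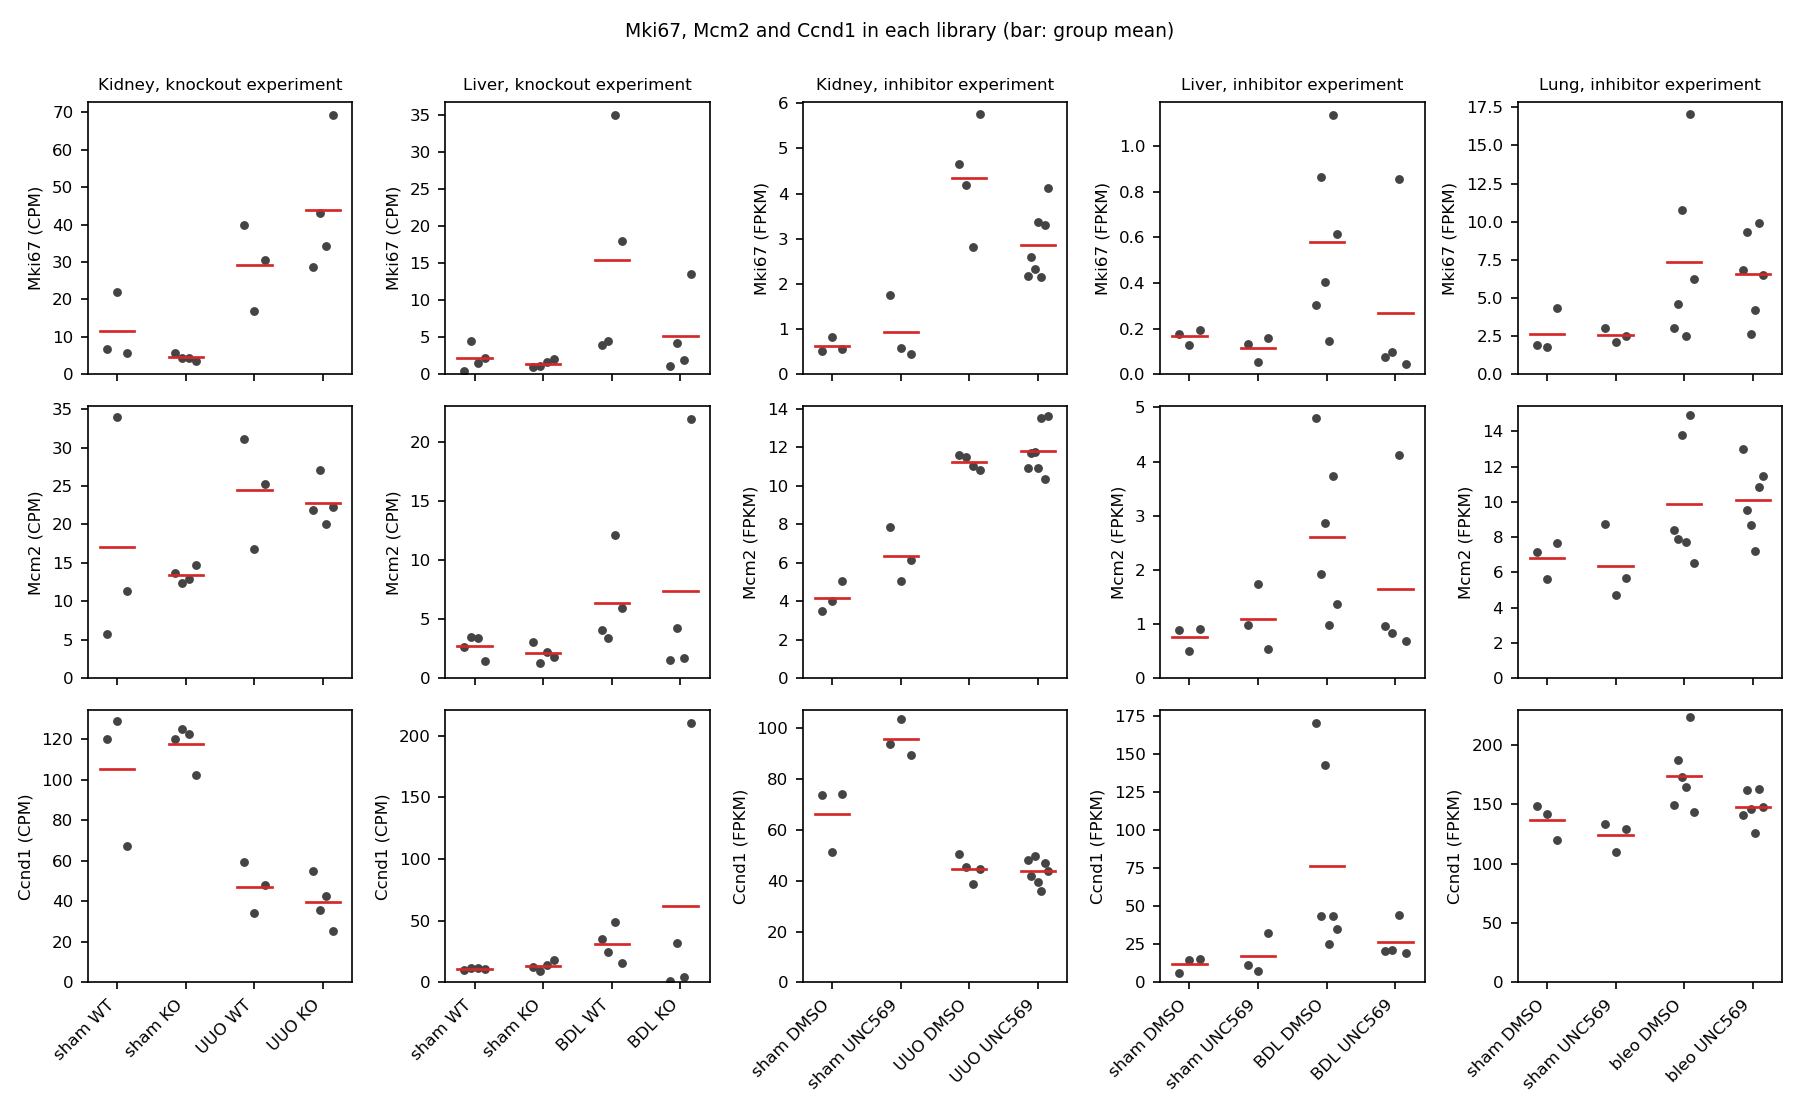
Levels of Mki67, Mcm2 and Ccnd1 in every library of the 5 sets, on linear axes that start at 0 and differ between panels, in CPM (knockout experiment) or FPKM (inhibitor experiment); points are libraries and bars are group means. Ccnd1 lies lower after UUO than after sham surgery in the 2 kidney sets, and in liver it spreads from 0.862 to 210.0 CPM within the BDL KO group.

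In DMSO-injected kidneys, obstruction raised both sets. After UUO 12 of 15 S phase genes and 18 of the 21 mitotic genes that reached 1 FPKM (a level scaled for gene length and depth) in at least 3 libraries rose and Ccnd1 fell, where 29.7% of the 15338 genes tested rose and 25.8% fell (55.5% in either direction by limma, adjusted p under 0.05). Of the 40 members 37 were tested; Bub1, Cenpe and Cenpf were too low. The medians were 1.33 over mitotic, 1.08 over S phase and 0.08 over all genes tested. Fold changes of FPKM are differences in log2(FPKM + 1), which understates the change of low genes.

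Among the replication genes, Mcm3 was at 1.38, 1.96 and 2.21 FPKM in sham and at 10.1, 8.22, 8.58 and 8.24 FPKM in UUO kidneys with DMSO (1.79 ± 0.19, adjusted p = 5.39e-07). Uhrf1 was at 1.28, 0.938 and 1.39 FPKM against 10.1, 8.36, 8.73 and 9.28 FPKM (2.20 ± 0.24, adjusted p = 7.34e-07). Mcm2 was at 3.52, 4.01 and 5.04 FPKM against 11.6, 11.5, 11.01 and 10.8 FPKM (1.25 ± 0.15, adjusted p = 1.77e-06). The 4 UUO values of each gene lay close together and above all sham values. Rrm1 was at 1.96, 1.61 and 1.83 FPKM against 5.29, 3.902, 4.91 and 5.799 FPKM (1.09 ± 0.19, adjusted p = 8.92e-05), and Ccne1 at 0.106, 0.254 and 0 FPKM against 2.84, 1.86, 1.39 and 2.67 FPKM (1.49 ± 0.26, adjusted p = 0.000103). Mcm6 (−0.14), Gins2 (0.05) and Tyms (−0.03) did not pass.

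Among the mitotic genes, Top2a was at 1.996, 0.791 and 0.358 FPKM in sham and at 11.03, 10.4, 8.83 and 9.77 FPKM in UUO kidneys (2.50 ± 0.28, adjusted p = 7.74e-07), and Mki67 at 0.516, 0.822 and 0.556 FPKM against 4.66, 4.19, 2.81 and 5.75 FPKM (1.69 ± 0.24, adjusted p = 1.38e-05). Aurkb was at 0.491, 0.4904 and 0.6704 FPKM against 7.87, 4.505, 3.31 and 8.09 FPKM (2.09 ± 0.24, adjusted p = 1.06e-06). Ube2c was at 0.521, 0.261 and 0.679 FPKM against 5.87, 6.88, 7.52 and 7.35 FPKM (2.42 ± 0.31, adjusted p = 4.7e-06). None of these 4 overlapped between groups. Ccnb2 was at 0.295, 0.178 and 0.158 FPKM against 2.45, 2.31, 2.08 and 2.01 FPKM (1.41 ± 0.22, adjusted p = 4.19e-05), and Prc1, which bundles the microtubules of the midzone, at 0.596, 1.24 and 1.46 FPKM against 9.304, 5.496, 5.82 and 8.76 FPKM (1.98 ± 0.34, adjusted p = 7.71e-05). Cenpa was at 2.49, 1.75 and 2.16 FPKM against 7.79, 8.07, 14.3 and 6.37 FPKM (1.64 ± 0.29, adjusted p = 0.000105), and Birc5 at 2.71, 1.66 and 0.748 FPKM against 6.505, 7.68, 5.902 and 8.42 FPKM (1.64 ± 0.36, adjusted p = 0.000883). These groups were apart as well. Bub1b (0.60, adjusted p = 0.0537), Kif20a and Kif23 did not pass. Ccnd1 was at 73.8, 51.2 and 74.1 FPKM in sham and at 50.4, 45.3, 38.9 and 44.8 FPKM in UUO kidneys, and fell by 0.54 on the log2 scale (SE 0.15, adjusted p = 0.00543).

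In UNC569-injected kidneys 11 of 15 S phase genes and 11 of the 21 mitotic genes tested rose after UUO and Ccnd1 fell, where 27.5% of all genes rose and 34.5% fell (62.1% in either direction). The medians were 0.73 over S phase genes, 0.57 over mitotic genes and −0.07 over all genes tested. Mcm3 was at 1.74, 0.866 and 0.712 FPKM in sham kidneys and at 6.74 to 11.1 FPKM (median 9.18) in the 7 UUO kidneys (2.28 ± 0.17, adjusted p = 5.4e-09). Uhrf1 was at 1.93, 1.12 and 0.418 FPKM against 6.93 to 13.9 FPKM (median 12.3; 2.54 ± 0.22, adjusted p = 2.4e-08), and Mcm2 at 7.87, 5.04 and 6.14 FPKM against 10.4 to 13.6 FPKM (median 11.7; 0.82 ± 0.13, adjusted p = 4.65e-05). The groups of these 3 replication genes did not overlap. Rrm1 was at 2.48, 2.18 and 1.73 FPKM against 3.14 to 5.96 FPKM (median 4.88; 0.83 ± 0.17, adjusted p = 0.000381). Ccne1 was at 0.668, 0.1302 and 0.137 FPKM against 0.645 to 2.43 FPKM (median 1.58; 0.93 ± 0.23, adjusted p = 0.00229), with the lowest UUO library below sham library 1.

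Among the mitotic genes of the UNC569 kidneys, Mki67 was at 1.75, 0.577 and 0.457 FPKM in sham and at 2.15 to 4.13 FPKM (median 2.61) in UUO kidneys (1.04 ± 0.22, adjusted p = 0.000502). Top2a was at 2.03, 1.28 and 1.54 FPKM against 2.78 to 7.18 FPKM (median 5.902; 1.15 ± 0.25, adjusted p = 0.000724), and Aurkb at 0.859, 0.447 and 0.312 FPKM against 2.13 to 3.64 FPKM (median 2.73; 1.37 ± 0.22, adjusted p = 2.93e-05). UUO library 7 was highest for Mki67 and Top2a, and no group overlapped. Ccnb2 was at 0.218, 0.724 and 0.1904 FPKM against 0.803 to 2.596 FPKM (median 1.88; 1.00 ± 0.20, adjusted p = 0.000373). Cenpa was at 5.26, 1.78 and 1.702 FPKM against 3.196 to 6.53 FPKM (median 5.71; 0.82 ± 0.26, adjusted p = 0.0106), and Birc5 at 3.99, 0.916 and 2.32 FPKM against 2.91 to 10.01 FPKM (median 5.15; 0.99 ± 0.33, adjusted p = 0.0133). For Cenpa and Birc5 sham library 1 lay within the UUO range. Kif23 was at 1.53, 0.872 and 0.431 FPKM against 1.17 to 2.46 FPKM (median 1.48; 0.48 ± 0.19, adjusted p = 0.0372). Ube2c was at 4.23, 2.89 and 0.604 FPKM against 2.83 to 6.62 FPKM (median 3.67) and did not pass (0.65 ± 0.28, adjusted p = 0.0552). Ccnd1 was at 93.9, 104 and 89.7 FPKM in sham kidneys and at 35.9 to 49.9 FPKM (median 44.1) in UUO kidneys, and fell by 1.12 on the log2 scale (SE 0.14, adjusted p = 1.48e-06).

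Set directly against each other after UUO, UNC569 and DMSO kidneys differed in 0 of the 37 members tested by limma. Of all genes 0.248% were higher and 1.05% lower with UNC569, 1.3% in either direction. An unadjusted p under 0.05 was found for 13 members, 11 of them mitotic, and the share of all genes at that level is not given. Of the 21 mitotic genes tested 20 had a negative value, with a median of −0.45, and of the 15 S phase genes 8 did, with a median of −0.10; over all genes the median was −0.03. Top2a was −0.93 ± 0.23 (adjusted p = 0.0517), and all 7 UNC569 kidneys lay below all 4 DMSO kidneys. Aurkb was −0.75 ± 0.20 (adjusted p = 0.0645), lower than every DMSO kidney in 4 of 7. Aurka, the kinase of the spindle poles, was at 3.72, 3.701, 3.75 and 4.86 FPKM with DMSO and 1.42 to 3.39 FPKM (median 2.22) with UNC569 (−0.62 ± 0.18, adjusted p = 0.0906). Kif11, the motor that pushes the spindle poles apart, was at 1.49, 1.11, 0.844 and 1.47 FPKM against 0.411 to 0.825 FPKM (median 0.681; −0.45 ± 0.16, adjusted p = 0.156). For Aurka and Kif11 too, all 7 lay below all 4. Mcm7, a helicase subunit, had the opposite sign (0.48 ± 0.16, adjusted p = 0.137). Leaving out 1 library brought 1 member past the threshold for each of sham DMSO 1, sham DMSO 3, UUO DMSO 3, UUO UNC569 3 and UUO UNC569 6, and scaling by the median of ratios also gave 1.

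In sham kidneys 4 of the 37 members tested differed with UNC569, where 13.3% of all genes were higher and 6.05% lower than with DMSO. The share of members was thus not above the background. Mcm6 (chr1:128331590-128359664) was at 6.86, 7.45 and 8.92 FPKM with DMSO and at 4.33, 4.01 and 3.29 FPKM with UNC569, and was lower by −0.84 ± 0.16 (adjusted p = 0.00264) with no overlap. Ccnd1 was higher by 0.54 ± 0.16 (adjusted p = 0.0269), also with no overlap, Ube2c by 1.11 ± 0.34 (adjusted p = 0.0287) and Mcm2 by 0.49 ± 0.16 (adjusted p = 0.0381). Nusap1 did not pass (0.68 ± 0.24, adjusted p = 0.0513). Ube2c and Mcm2 rest on sham UNC569 library 1, which had the highest value of its group for 15 of 15 S phase and 21 of 24 mitotic genes, while Cdk1 was listed at 0 in it. Without that library, Mcm3 (−0.66), Mcm6 (−0.91) and Mcm7 (−0.69) were lower and 0 members were higher, where 7.04% of all genes were lower and 8.8% higher. Without sham DMSO 2, 2 members passed.

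The response to UUO itself differed between UNC569 and DMSO kidneys for 6 of the 37 members tested. These were 2 helicase subunits with a higher and 4 mitotic genes with a lower response. Mcm6 did not rise with DMSO, where its means were 7.74 FPKM after sham surgery and 6.96 FPKM after UUO. Of all genes 6.17% had a higher and 13.4% a lower response, so the share of members was not above the background. Mcm6 was at 7.08, 7.95, 5.79 and 7.01 FPKM in UUO kidneys with DMSO and at 5.31 to 7.99 FPKM (median 7.27) with UNC569, which overlap, while its sham values given above did not, and its difference of responses was 0.87 ± 0.20 (adjusted p = 0.00869). Mcm7 (chr5:138164583-138172422) was at 13.4, 16.3 and 16.4 FPKM in sham kidneys with DMSO and at 15.4, 9.03 and 9.15 FPKM with UNC569. After UUO it was at 18.5, 27.1, 19.3 and 24.4 FPKM with DMSO and at 23.3 to 38.9 FPKM (median 32.6) with UNC569, a difference of responses of 0.93 ± 0.27 (adjusted p = 0.0218). Its sham groups and its UUO groups both overlapped between injections.

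The 4 mitotic genes were Ube2c (−1.76 ± 0.42, adjusted p = 0.00949), Nusap1 (−1.17 ± 0.30, adjusted p = 0.0121), Top2a (−1.36 ± 0.37, adjusted p = 0.0187) and Prc1 (−1.42 ± 0.45, adjusted p = 0.0361). Nusap1 was at 0.3598, 0.849 and 0.225 FPKM in sham kidneys with DMSO and at 1.45, 0.933 and 1.68 FPKM with UNC569. After UUO it was at 2.16, 1.71, 1.38 and 3.12 FPKM with DMSO and at 0.694 to 1.597 FPKM (median 1.04) with UNC569. Its levels with UNC569 thus overlapped between sham and UUO kidneys. Prc1 was at 5.36, 1.51 and 1.45 FPKM in sham kidneys with UNC569 and at 2.54 to 6.73 FPKM (median 4.59) after UUO. Its highest sham value was again that of library 1. Without that library Prc1 no longer passed while Mcm6 (0.93), Mcm7 (1.17), Top2a (−1.25), Nusap1 (−1.14) and Ube2c (−1.41) did. In that setting 7.82% of all genes had a higher and 11% a lower response. Over the set, the median difference was −0.65 over mitotic, −0.24 over S phase and −0.13 over all genes tested.

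**Figure D4:**
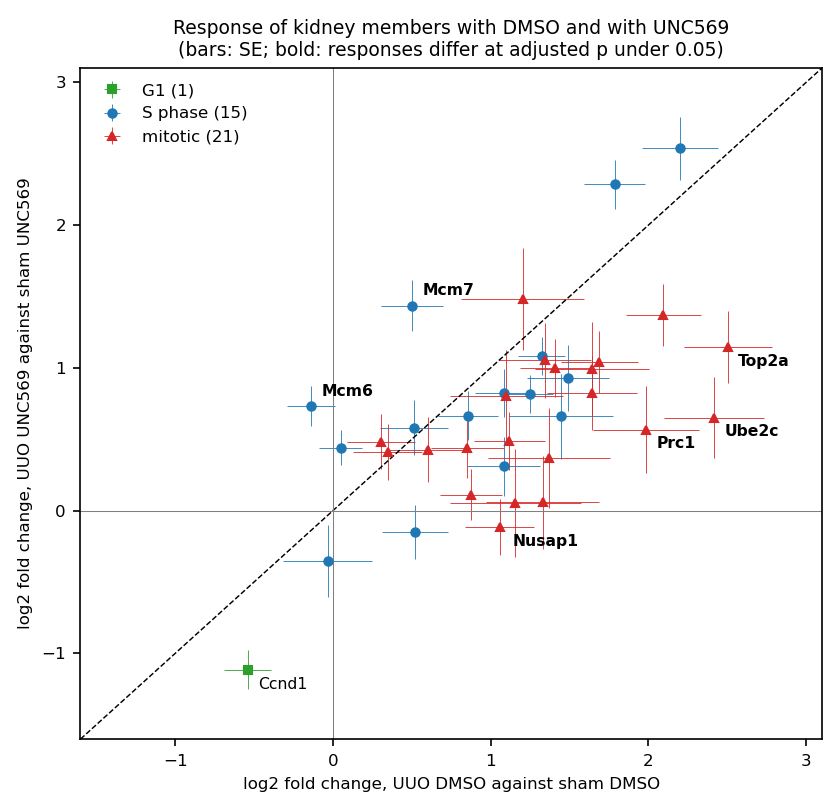
Response of each member to UUO in kidney, as the difference in log2(FPKM + 1) from sham, with DMSO on the horizontal and with UNC569 on the vertical axis; bars are SE and the diagonal marks equal responses. The 6 members named in bold (Mcm6, Mcm7, Top2a, Nusap1, Prc1 and Ube2c) had responses that differed, the first 2 above and the other 4 below the diagonal.

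Marker levels also differed between these kidneys. The 7 macrophage markers summed to 129 to 173 FPKM in sham kidneys with DMSO and 47.01 to 93.1 FPKM with UNC569, and to 1474 to 1992 and 1199 to 1630 FPKM after UUO. The 7 fibroblast markers summed to 684 to 935 FPKM after UUO with DMSO and 216 to 959 FPKM with UNC569. Endothelial markers summed to 68.1 to 71.9 FPKM in sham kidneys with DMSO and 25.01 to 41.4 FPKM with UNC569. Their part in the values of the members was not tested.

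In DMSO-injected livers Ccnd1 alone among the 22 members tested rose after ligation, where 5.47% of the 12986 genes tested rose and 7.92% fell. The other 18 members, Mki67, Cdk1, Foxm1 and Mcm5 among them, did not reach 1 FPKM in 3 libraries. Ccnd1 was at 6.45, 14.7 and 15.7 FPKM in sham livers and at 25.2 to 171 FPKM (median 43.7) in the 6 BDL livers, 6 of 6 above every sham liver (2.26 ± 0.56, adjusted p = 0.0144). This is the opposite direction to its fall in obstructed kidneys. Mcm2 was at 0.886, 0.499 and 0.908 FPKM against 0.977 to 4.81 FPKM (median 2.39; 0.94 ± 0.37, adjusted p = 0.102). Uhrf1 was listed at 0, 0 and 0.0757 FPKM in sham livers and was at 0.0708 to 3.101 FPKM (median 1.602) in BDL livers (1.18 ± 0.43, adjusted p = 0.0769), and Mcm4 was at 0.974, 0.874 and 0.454 FPKM against 1.097 to 5.14 FPKM (median 1.77; 0.81 ± 0.31, adjusted p = 0.0942). For Mcm2 and Mcm4 the groups did not overlap. Ccne1 was at 0.616, 0.439 and 0.278 FPKM against 0.6302 to 2.98 FPKM (median 1.01; 0.71 ± 0.31, adjusted p = 0.143), and Birc5 at 0.297, 0.679 and 0.293 FPKM against 0.574 to 2.22 FPKM (median 1.12; 0.61 ± 0.25, adjusted p = 0.123). Top2a was at 0, 0.0968 and 0.594 FPKM against 0.0969 to 3.52 FPKM (median 1.26; 0.94 ± 0.45, adjusted p = 0.183). Their values were positive and did not pass. Mki67, untested, was at 0.175, 0.128 and 0.194 FPKM in sham and at 0.148 to 1.14 FPKM (median 0.509) in BDL livers. Prc1 (0.68 ± 0.31), Ube2c (0.75 ± 0.38), Ccna2 (0.39 ± 0.22), Tk1 (−0.55 ± 0.36), Aurka (−0.19 ± 0.26) and Cenpa (−0.32 ± 0.45) had the smallest p of their roles and adjusted p between 0.155 and 0.682. The count was 0 without sham DMSO 1, 2 without BDL DMSO 4 and 3 without BDL UNC569 3.

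In UNC569-injected livers 0 of the 22 members tested passed after ligation (limma), 4 had an unadjusted p under 0.05, and 3.66% of all genes rose and 4.9% fell. Ccnd1 was at 11.7, 7.64 and 32.9 FPKM in sham and at 20.5, 21.3, 44.4 and 19.1 FPKM in BDL livers (0.73 ± 0.61, adjusted p = 0.52). Gins2 was at 6.08, 4.96 and 13.1 FPKM against 4.01, 4.402, 3.899 and 5.11 FPKM (−0.66 ± 0.24, adjusted p = 0.112), and Tk1 at 45.4, 78.4 and 41.6 FPKM against 16.7, 25.8, 58.2 and 20.2 FPKM (−0.96 ± 0.38, adjusted p = 0.141). All 3 groups overlapped. Birc5 was at 0.123, 0.0644 and 0.675 FPKM against 0.561, 1.17, 0.907 and 1.57 FPKM (0.68 ± 0.28, adjusted p = 0.143), and Ccna2 at 0.797, 0.521 and 0.612 FPKM against 1.39, 1.78, 0.914 and 1.802 FPKM (0.58 ± 0.23, adjusted p = 0.145). Mki67 was at 0.0743, 0.0997, 0.853 and 0.0461 FPKM in the BDL livers, Top2a at 0, 0.329, 2.04 and 0 FPKM, and Mcm2 at 0.959, 0.836, 4.13 and 0.699 FPKM. For these 3 genes BDL UNC569 3 was far above the other 3 libraries; it was highest in its group for 26 of 40 members. Without it, and likewise without sham UNC569 2, 1 member passed.

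Between UNC569 and DMSO 0 of the 22 members tested differed in ligated livers (limma; 3 at an unadjusted p under 0.05; 0.123% of all genes higher and 0.193% lower with UNC569). The smallest p were those of Gins2 (−0.54 ± 0.21, adjusted p = 0.337), Ccnd1 (−1.22 ± 0.51, adjusted p = 0.383), Mcm4 (−0.61 ± 0.29, adjusted p = 0.433), Prc1 (−0.56 ± 0.28, adjusted p = 0.48) and Tyms (−0.67 ± 0.36, adjusted p = 0.508). In sham livers 0 passed and 0 had an unadjusted p under 0.05, and in the difference of the responses 0 passed and 1, Prc1 (−0.98 ± 0.46, adjusted p = 0.999), had an unadjusted p under 0.05, with 0% of all genes called in both. Cholangiocyte markers summed to 113 to 795 FPKM in BDL livers with DMSO, 78.7 to 109.1 FPKM with UNC569 and 16.2 to 74.8 FPKM in sham livers; their part in these values was not tested.

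In lung 0 of the 39 members tested passed after bleomycin, with DMSO or with UNC569 (limma), where 0.0251% of the 15935 genes tested rose and 0.0439% fell with DMSO, and 0.0188% and 0.00628% with UNC569. With DMSO 23 of the 23 mitotic genes tested and 12 of 15 S phase genes had positive values, with medians of 0.74 and 0.42 and 13 members at an unadjusted p under 0.05; with UNC569 these were 23 of 23, 15 of 15, 0.82, 0.50 and 15. The medians over all genes tested were −0.02 and −0.05. Members of 1 programme share their libraries, so such counts are not independent. The shares of all genes with a positive value or an unadjusted p under 0.05 are not given. These counts are therefore no result about the set.

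The mitotic genes showed how wide the bleomycin groups were. Mki67 was at 1.898, 1.802 and 4.32 FPKM in sham lungs with DMSO and at 2.51 to 17.1 FPKM (median 5.41) in the 6 bleomycin lungs; with UNC569 it was at 3.05, 2.15 and 2.48 FPKM and at 2.64 to 9.94 FPKM (median 6.67). The change was 1.00 ± 0.45 with both injections (adjusted p = 0.228 and 0.455). Top2a was at 3.21, 3.95 and 7.17 FPKM against 4.89 to 21.1 FPKM (median 10.1) with DMSO (1.04 ± 0.42, adjusted p = 0.191), and at 4.15, 2.18 and 4.86 FPKM against 6.18 to 19.5 FPKM (median 12.8) with UNC569 (1.44 ± 0.42, adjusted p = 0.33). With DMSO bleomycin lung 5 was highest in its group for 33 of 40 members, and sham DMSO 3 lay above the other sham lungs in both genes. Ccnb2 was at 0.153, 0.547 and 1.58 FPKM in sham lungs with DMSO and at 1.66 to 5.97 FPKM (median 2.21) in bleomycin lungs (1.23 ± 0.37, adjusted p = 0.116). Ube2c was at 2.21, 1.63 and 5.32 FPKM against 5.92 to 21.2 FPKM (median 7.15; 1.48 ± 0.46, adjusted p = 0.12), and Cenpf at 0.2997, 0.285 and 0.859 FPKM against 0.888 to 3.05 FPKM (median 1.17; 0.76 ± 0.27, adjusted p = 0.155). These 3 had groups that did not overlap. Without sham DMSO 3, Ccnb2 (1.55, adjusted p = 0.0246) and Ube2c (1.85, adjusted p = 0.0304) passed, where 4.06% of all genes rose and 7.96% fell. Plk1 (0.95 ± 0.43), Kif11 (0.73 ± 0.30) and Birc5 (0.77 ± 0.50) had the smallest p of their roles with DMSO, and adjusted p of 0.23, 0.199 and 0.404. With UNC569, Aurkb was at 1.32, 2.55 and 1.54 FPKM in sham and 3.67 to 10.2 FPKM (median 6.92) in bleomycin lungs (1.45 ± 0.38, adjusted p = 0.289), and Birc5 at 3.96, 2.02 and 2.83 FPKM against 4.44 to 18.8 FPKM (median 11.3; 1.47 ± 0.50, adjusted p = 0.383).

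Among the replication genes in lung, Mcm2 was at 7.16, 5.602 and 7.68 FPKM in sham and 6.51 to 14.9 FPKM (median 8.16) in bleomycin lungs with DMSO (0.43 ± 0.24, adjusted p = 0.325), and at 8.73, 4.72 and 5.68 FPKM against 7.21 to 13.02 FPKM (median 10.2) with UNC569 (0.61 ± 0.24, adjusted p = 0.409). Mcm6 was at 4.61, 4.71 and 4.51 FPKM against 5.31 to 9.91 FPKM (median 6.23) with DMSO (0.45 ± 0.17, adjusted p = 0.171). Rrm2, the small reductase subunit, was at 1.69, 1.59 and 2.17 FPKM against 2.9 to 11.6 FPKM (median 5.92) with UNC569 (1.22 ± 0.38, adjusted p = 0.335). The last 2 had groups that did not overlap. Ccnd1 was at 149, 142 and 119.7 FPKM in sham and at 144 to 223 FPKM (median 169) in bleomycin lungs with DMSO (0.33 ± 0.13, adjusted p = 0.182), and at 133, 109.8 and 129 FPKM against 126 to 163 FPKM (median 147) with UNC569 (0.25 ± 0.13, adjusted p = 0.519). Rrm1 (0.55 ± 0.25), Uhrf1 (0.42 ± 0.36) and Ccne2 (0.07 ± 0.28) with DMSO did not pass either.

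UNC569 and DMSO lungs did not differ in any of the 39 members after bleomycin, after sham treatment or in the response (limma; 0 at an unadjusted p under 0.05 in each; 0% of all genes called). Ccnd1 had the smallest p after bleomycin (−0.22 ± 0.11, adjusted p = 0.867), followed by Ccnb1 (−0.52 ± 0.35), Ccne1 (0.41 ± 0.29), Mcm4 (0.17 ± 0.13) and Aurkb (0.35 ± 0.31). The columns sham DMSO 1 and 2 were closer to each other than any other pair of lung columns of the same group, and with their mean used as 1 sample 0 members passed in lung. Macrophage markers summed to 206 to 267 FPKM in sham lungs, 234 to 951 FPKM in bleomycin lungs with DMSO and 255 to 1478 FPKM with UNC569, and their part in the spread of the members was not tested.

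**Figure D5:**
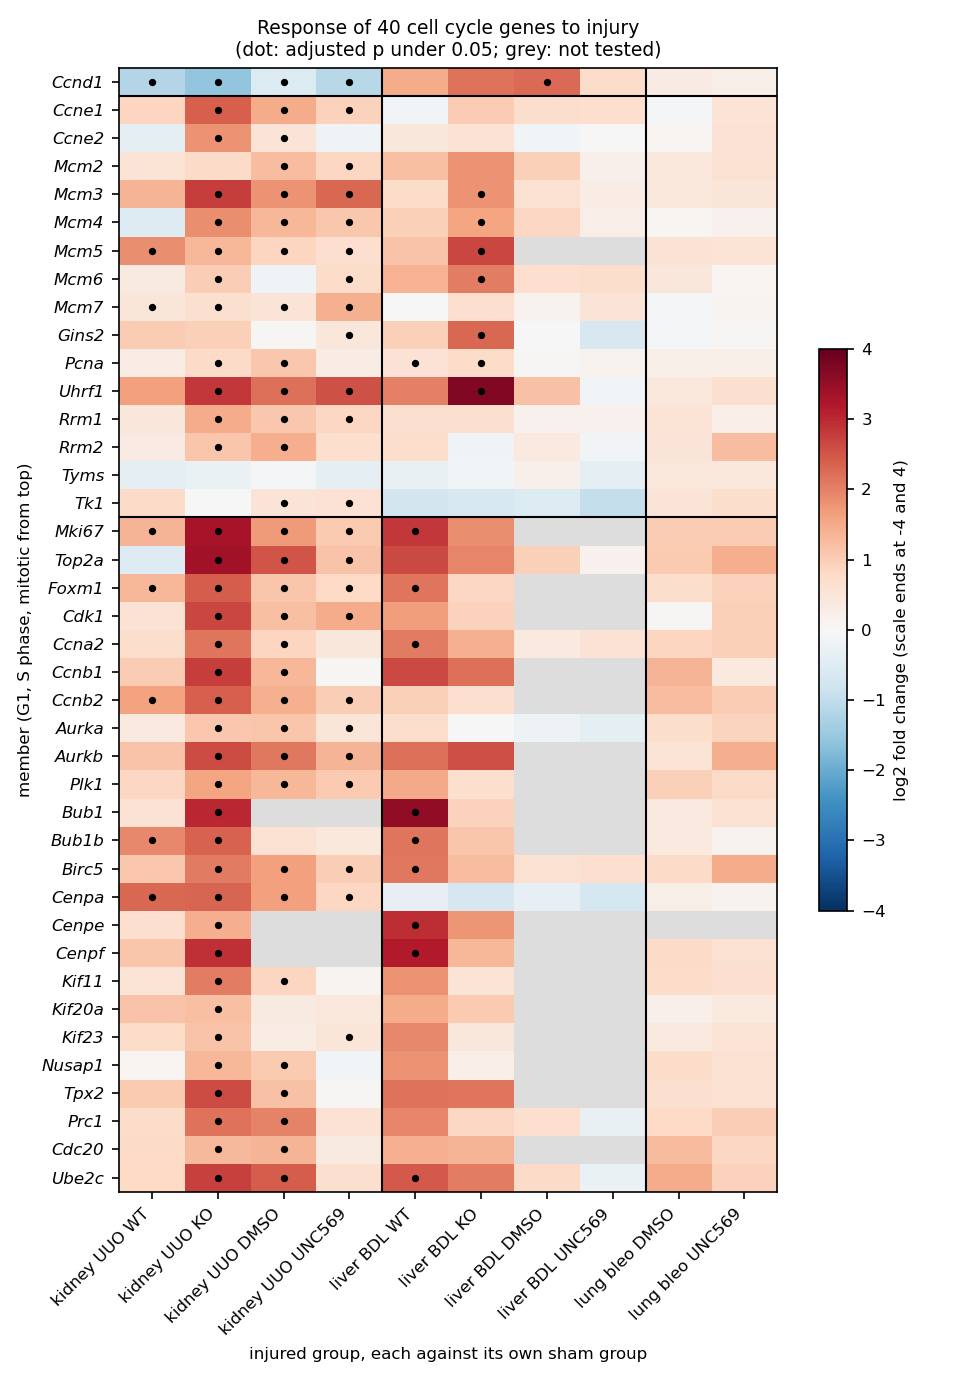
Heat map of the 40 members (vertical) in the 10 comparisons of injured with sham tissue (horizontal), coloured by log2 fold change from −4 to 4; dots mark adjusted p under 0.05 and grey cells were not tested. The 4 kidney columns hold most of the dots, Ccnd1 is negative in the kidney columns and positive in the liver and lung columns, and the lung columns hold no dot.

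Across the 10 comparisons of injured with sham tissue, Foxm1, Mcm5 and Mki67 rose in 5 of the 8 in which each was tested, the highest count of any member. Birc5, Ccnb2, Cenpa, Mcm3, Mcm4, Mcm7, Pcna and Uhrf1 rose in 4. Tyms, which makes thymidylate for replication, rose in 0 of 10 and had a positive value in 3. Ccnd1 rose in 1 and fell in 4, all 4 in kidney.

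The library kit kept no strand, per the labels' protocols. Exon sequence is shared with another protein-coding gene in 12 members, in 11 of them on the opposite strand only. In the counts, reads that could not be assigned to a single gene were set apart as ambiguous (1.69% to 8.02% of reads). These members may therefore lose reads there. In the FPKM tables, whose program is not given, their values may hold reads of the neighbour. The overlap covered 67.3% of the exon length of Gins2 (with Gse1), 29.3% of Kif20a (Cdc23), 23.4% of Ccnd1 (Lto1) and 22.8% of Ube2c (Tnnc2). It covered 17.4% of Ccne2 (Ints8), 12.5% of Ccna2 (Exosc9), 11.1% of Prc1 (Rccd1) and 7.25% of Mcm7 (Ap4m1). Gins2 FPKM was 12.5 to 23.4 in kidney, 3.90 to 13.1 in liver and 18.6 to 28.3 in lung. In the counts, on another scale, Gins2 was at 0.919 to 5.68 CPM in kidney and 0.118 to 3.31 CPM in liver.

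Other genes of the same programme, in lists of 35 replication and 45 mitosis genes that are no members, are given here beside all genes tested. Of all genes 23.3% rose and 16% fell after UUO in WT kidneys, and 34.7% rose and 24.4% fell in KO kidneys. After UUO 9 of the 35 rose and 2 fell in WT and 21 rose and 3 fell in KO kidneys, and of the 45 mitosis genes 14 rose and 2 fell in WT and 33 rose and 4 fell in KO kidneys, with medians of 0.60 and 1.01 over the first list and 1.25 and 1.82 over the second. With DMSO 15 of 28 tested rose and 2 fell, and 24 of 32 rose and 3 fell, against 29.7% and 25.8% of all genes; with UNC569 16 and 3, and 18 and 4, against 27.5% and 34.5%. In liver 2 of 31 replication genes rose and 3 fell and 9 of 40 mitosis genes rose and 1 fell in WT, and 8 and 2, and 3 and 1, in KO livers, where 16.3% of all genes rose and 12.8% fell in WT and 14% rose and 11.2% fell in KO. In the inhibitor livers 0 of 22 and 0 of 13 rose and 2 and 1 fell with either injection, against 5.47% and 7.92% of all genes with DMSO and 3.66% and 4.9% with UNC569. In lung 0 of 31 and 0 of 38 passed with DMSO and 0 and 1 rose with UNC569, against 0.0251% and 0.0188% of all genes that rose. Mcm10, a replication initiation factor, fell in liver by 3.8 in WT and 4.16 in KO on the log2 scale.

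Cdkn1a, which encodes the CDK inhibitor p21, rose in kidney by 2.15 in WT (adjusted p = 0.0121), 2.37 in KO (adjusted p = 0.00147), 1.77 with DMSO (adjusted p = 9.78e-06) and 2.64 with UNC569 (adjusted p = 1.73e-08). In liver Cdkn1a rose by 4.43 in WT (adjusted p = 0.00238), 7.02 in KO (adjusted p = 0.000457), 3.69 with DMSO (adjusted p = 0.00254) and 4.20 with UNC569 (adjusted p = 0.00232). In lung its values of 1.84 (adjusted p = 0.0728) and 0.98 (adjusted p = 0.447) did not pass. Of 7 CDK inhibitor genes 4 rose in WT and 5 in KO kidneys after UUO and 0 fell, where 23.3% and 34.7% of all genes rose. With DMSO 6 rose and 1 fell (29.7% and 25.8% of all genes), and with UNC569 3 rose and 2 fell (27.5% and 34.5%). Of the other D-type cyclins Ccnd2 and Ccnd3 and the kinases Cdk4 and Cdk6, 2 of 4 rose in WT kidneys (23.3% of all genes). In KO kidneys 2 rose (34.7%), Ccnd2 (2.64) and Cdk6 (1.62), and 1 fell, Ccnd3 (−1.14). Ccnd1 and Ccnd2 thus went in opposite directions there.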

How the data were processed

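RNA sequencing was run on kidney, liver and lung, with an unstranded kit and 100-base reads per the labels' protocols. Per the submitters' processing notes, the tools were STAR, edgeR, FastQC and Trim Galore (versions not given) and the builds hg38 and mm10. The knockout experiment was deposited as counts of reads per gene from STAR, of which the unstranded column was used, and the inhibitor experiment as FPKM tables whose program is not given in the sources used here. Samples were grouped by tissue, genotype or injection, and injury, and 0 FPKM columns stayed without a group. The 40 members, all other gene lists and the kidney libraries left out were chosen with earlier results of these data known.

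Counts were filtered with filterByExpr, scaled by TMM and tested with edgeR 4.0.16 (quasi-likelihood, 1 term per group) in R 4.3.3. FPKM was tested with limma 3.58.1 on log2(FPKM + 1), for genes at 1 FPKM or more in at least 3 libraries. P-values were adjusted by Benjamini-Hochberg over all genes tested, with a threshold of 0.05. CPM of members and markers use library sizes scaled by TMM; those of Mertk and of the left-out pair use unscaled reads in genes. The scripts were tested on simulated data. After injury, values per library are given for Mki67, Top2a, Mcm2, Ccnd1 and the members of smallest p in each role; in the other comparisons the 5 members of smallest p are named, and of other lists at most 3 genes beside Cdkn1a. Alternatives were DESeq2 1.42.0, other scalings, filters and pseudocounts, a replicate block and leaving libraries out; leaving out BDL WT 3 with BDL KO 4, and averaging a close pair of lung columns, were chosen after seeing the data. Kidney sham WT 1 and UUO WT 1 were left out. The depth of the count libraries limits low genes, and that of the FPKM tables is unknown.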

Additional observations from a re-analysis of the deposited data

Results flagged for a closer look

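Of 72 groups and measures examined for a library standing apart, 5 had one; chance alone gives about 1 in 20. The measure is the gap of the highest library to the next, divided by the range of its group, on log2(level + 1). In liver BDL KO 4 stood apart in the mean of the S phase members (0.855), and sham KO 4 in the mean of the mitotic members (0.925). BDL UNC569 3 stood apart from the other livers of its group for Mki67 (0.913), Mcm2 (0.871) and Ccnd1 (0.877).

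The response of the kidney to UUO differed between UNC569 and DMSO for 6 of the 37 members tested, in limma's test of the difference itself. Of all genes 19.6% differed in that test, so the share of members was not above the background. The response was higher with UNC569 for Mcm6 (0.8681) and Mcm7 (0.9344). It was lower for Top2a (−1.357), Nusap1 (−1.172), Prc1 (−1.417) and Ube2c (−1.763), as differences in log2(FPKM + 1). Ccnd1 was lower in every DMSO-injected kidney after UUO (−0.5413) and higher in every DMSO-injected liver after BDL (2.263); the difference between these tissues was not tested.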

How the results depend on the processing

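Counts below are members past the threshold. For most of these settings the share of all genes called is not given, and a count without it is no result about the set. The same holds for counts above that stand without a share. In WT kidneys after UUO the count of 8 became 25 without the libraries noted to have a bad fastq file, 28 without sham WT 3 and 3 with only the groups compared in the fit, and leaving out 1 library gave 5 to 28. The KO kidney count of 36 ran from 32 to 37. For sham KO against sham WT kidneys the 0 became 4 with DESeq2 (0 to 14 on leaving out 1). For the difference of the responses the count with DESeq2 was 3 (0 to 12). Without the libraries noted to have a bad fastq file, kidney sham WT and UUO WT keep 1 library each. No kidney counts are given for that setting. In WT livers after BDL the 10 became 18 with DESeq2 and 1 without the bad fastq libraries. It became 21 without BDL KO 1 and 3, where 21.9% of all genes rose and 20.3% fell. Without BDL WT 3 and BDL KO 4 it was 3, and with only the groups compared 16 (0 to 16). In KO livers the 7 became 11 without BDL KO 1 and 3 and 2 with only the groups compared (1 to 10). BDL KO against BDL WT gave 2 with DESeq2 (0 to 7). In the inhibitor kidneys the 31 with DMSO ran from 26 to 32 and the 23 with UNC569 from 17 to 29. UNC569 against DMSO after UUO gave 1 with median-of-ratios scaling (0 to 1), the sham comparison of 4 gave 1 with only the groups compared (2 to 5), and the difference of 6 ran from 4 to 9. The liver DMSO count of 1 became 2 with a pseudocount of 0.1 (0 to 3), the liver UNC569 count ran from 0 to 1 and the lung DMSO count from 0 to 2. The other 10 comparisons gave 0 on leaving out any 1 library. Where no smaller sample or fit accounts for a change, the cause was not tested.

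Of the values of single members, Top2a in WT kidneys after UUO turned positive without the bad fastq libraries (2.15) and without sham WT 3 (1.84), and leaving out 1 library gave −1.03 to 1.84. Without the bad fastq libraries, which leaves 1 library each in kidney sham WT and UUO WT, assumed to vary like the other groups, Mcm2 turned to 1.29 in sham KO against sham WT and to −1.76 in the difference of the responses. Single-member values kept direction and side in 4099 cases, passed newly in 46, no longer passed in 268 and turned in 5.

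Replicate numbers were not taken to pair the samples. Correlated deviations over 0.1 were found in 4 of 19 same-numbered and 14 of 54 other-numbered kidney pairs. In liver these were 5 of 24 and 11 of 72 pairs. With a replicate block the counts were 7 in WT and 33 in KO kidneys, 7 in WT livers and 3 in KO livers, and 0 in the other knockout comparisons. No paired analysis was possible because the inhibitor columns carry no sample number.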
